A study of Drosophila melanogaster with 35 samples.

Results

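The difference between endocycling and mitotic follicle cells that both lacked Rif1 was described along the genome of Drosophila melanogaster. The members were the 100-kb windows at a 10-kb slide for which the mean replication timing (RT) value of Rif1 null endocycling cells could be set against that of Rif1 null mitotic cells. Of 13391 windows on 2L, 2R, 3L, 3R, X and 4, 13360 were used, and 31 windows with a midpoint on X between 2.7 and 3.0 Mb were left out. These comprised 11409 windows of the chromosome arms, 1816 pericentric windows and 135 windows of chromosome 4. Each RT value is log2 of the S phase to G1 read ratio, and each profile was centred on its own median over the arm windows. A positive difference therefore means a higher S/G1 value in endocycling than in mitotic cells relative to the arms. Nuclei came from ovaries of adult females fed wet yeast for 2 days, about 200 pairs of ovaries per sample, and were sorted on DAPI signal alone. The null females carried the alleles Rif1 1 and Rif1 2 over each other, and the wild-type females beside them were Oregon-R. Mitotic S phase nuclei lay between 2C and 4C and endocycling S phase nuclei between 4C and 8C, so both null groups lacked Rif1 and differed in DNA content. The 2C to 4C fraction can also hold cells in their first endocycle. Each of the 4 groups had 2 S phase samples, but the values are 1 mean per group. Differences could therefore not be set against the spread between samples, and no p-value is given. The read depth behind a window is unknown, and neighbouring windows overlap and are not independent. The G1 libraries of the series were labelled as wing disc DNA. The paper names wing disc G1 nuclei as copy number control for all samples, so follicle profiles were set against another tissue. Which G1 library was used for each follicle profile was not given in the sources used here.

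Follicle cells form the epithelium around the growing egg chamber. After a period of mitotic divisions, Notch signaling switches them to the endocycle, in which S phases follow each other without mitosis and DNA content rises. In endocycles of many fly tissues, pericentric heterochromatin and some late-replicating regions remain underreplicated. Later, a few loci with eggshell protein genes fire origins repeatedly and are amplified in place. Rif1 binds the phosphatase PP1 and holds back origin firing in late-replicating chromatin by opposing the kinase Cdc7, and with SuUR it slows forks in underreplicated regions.

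Sequences from loci described below are shown first, all from the Release 6 RefSeq assembly, plus strand. The promoters of the chorion genes Cp18 on 3L and Cp36 on X mark the amplified loci, and run from 200 bases before the annotated start to 10 transcribed bases in capitals.
Cp18 promoter, chr3L:8726591-8726800: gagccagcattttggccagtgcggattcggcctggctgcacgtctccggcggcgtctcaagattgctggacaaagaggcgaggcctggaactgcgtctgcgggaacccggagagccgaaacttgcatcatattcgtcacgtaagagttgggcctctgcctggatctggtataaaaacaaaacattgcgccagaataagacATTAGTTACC
Cp36 promoter, chrX:8479119-8479328: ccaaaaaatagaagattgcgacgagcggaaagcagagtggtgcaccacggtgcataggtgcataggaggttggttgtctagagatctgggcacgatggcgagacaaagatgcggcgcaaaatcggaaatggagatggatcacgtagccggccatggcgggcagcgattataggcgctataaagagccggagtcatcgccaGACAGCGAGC
The proximal end of the 3R scaffold held the windows with the highest difference, and its first bases are an array of the unit AGTACGGGACC, a member of the dodeca satellite family of chromosome 3, shown with every other copy in capitals.
3R satellite array, chr3R:602-781: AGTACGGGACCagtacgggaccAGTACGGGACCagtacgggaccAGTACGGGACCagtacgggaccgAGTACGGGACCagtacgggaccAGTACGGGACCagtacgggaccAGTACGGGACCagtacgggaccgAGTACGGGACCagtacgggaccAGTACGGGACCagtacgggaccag
The tip of X held some of the lowest arm values and an AT-rich repeat, in which the word TTTTGCCATTTT is in capitals.
X tip repeat, chrX:202092-202331: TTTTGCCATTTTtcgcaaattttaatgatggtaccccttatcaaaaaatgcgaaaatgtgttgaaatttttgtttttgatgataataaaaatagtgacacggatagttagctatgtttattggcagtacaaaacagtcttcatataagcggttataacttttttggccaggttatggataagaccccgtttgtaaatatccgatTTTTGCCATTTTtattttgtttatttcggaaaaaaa
The middle of the arm window of X with the highest GC content shows the other extreme of base composition, with G and C in capitals.
GC-rich X window, chrX:1429901-1430100: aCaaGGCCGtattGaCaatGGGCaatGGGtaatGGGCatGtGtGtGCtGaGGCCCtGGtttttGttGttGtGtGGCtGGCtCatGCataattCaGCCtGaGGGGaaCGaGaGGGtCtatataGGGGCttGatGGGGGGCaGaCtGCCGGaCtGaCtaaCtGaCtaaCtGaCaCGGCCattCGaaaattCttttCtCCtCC

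The 2 null profiles differed in many windows. Relative to mitotic cells, endocycling null cells were higher by over 0.1 in 2403 of 13360 windows (18.0%) and lower by over 0.1 in 3520 (26.3%). The threshold of 0.1 corresponds to a ratio of 1.07. Past 0.2 in size were 4.46% of windows on the higher and 10.1% on the lower side. In wild type, by the same subtraction, 2.72% of windows were higher and 5.13% lower in endocycling cells, and 0.217% and 3.25% were past 0.2. On the arms, the null endocycling profile was also wider than the mitotic profile, with an SD over windows of 0.151 against 0.084, whereas the ratio of these SDs was 1.80 in null and 0.89 in wild-type cells. Over the 11409 arm windows, which share libraries, null endocycling and mitotic values had a Pearson correlation of 0.525, and wild-type values one of 0.940. Values lay close on both sides of the threshold. The 3 higher windows just inside it were at 0.10001, 0.10006 and 0.10009 and the 3 just outside at 0.09994, 0.09999 and 0.09999. The 3 lower windows just inside were at −0.10001, −0.10012 and −0.10017 and the 3 just outside at −0.09985, −0.09987 and −0.09994.

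The null difference moved with the GC content of the window. Over arm windows its Pearson correlation with GC content was 0.874, between 0.830 and 0.913 on each of the 5 arms, and a percentage point of GC content went with 0.053 on the log2 scale. The wild-type difference had a correlation of 0.062. In 10 equal groups of arm windows by GC content, the median null difference ran without a break in order from −0.22 at a median GC content of 39.2% to 0.17 at 46.2%. Null mitotic medians in these groups stayed between −0.01 and 0.02, and null endocycling medians ran from −0.20 to 0.18. Of the 9 deposited profiles, that of null endocycling follicle cells had a correlation with GC content of 0.705 and the other 8 lay between −0.473 and 0.176. The main results below are therefore given also with this trend removed, taken as the median of the difference in 50 bins of arm windows of like GC content. With the trend removed, 11.4% of all windows were higher and 3.21% lower, and 3.43% and 0.367% of all windows were past 0.2. The wild-type shares were 2.57% and 5.28%, and 0.21% and 3.37% past 0.2. The arm correlation of the 2 null profiles was 0.815, and their SDs over arm windows were 0.107 in endocycling and 0.084 in mitotic cells. The part of GC content in the other differences was not tested, and whether it goes with library preparation, sequencing or the cells cannot be told apart here.

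**Figure D1:**
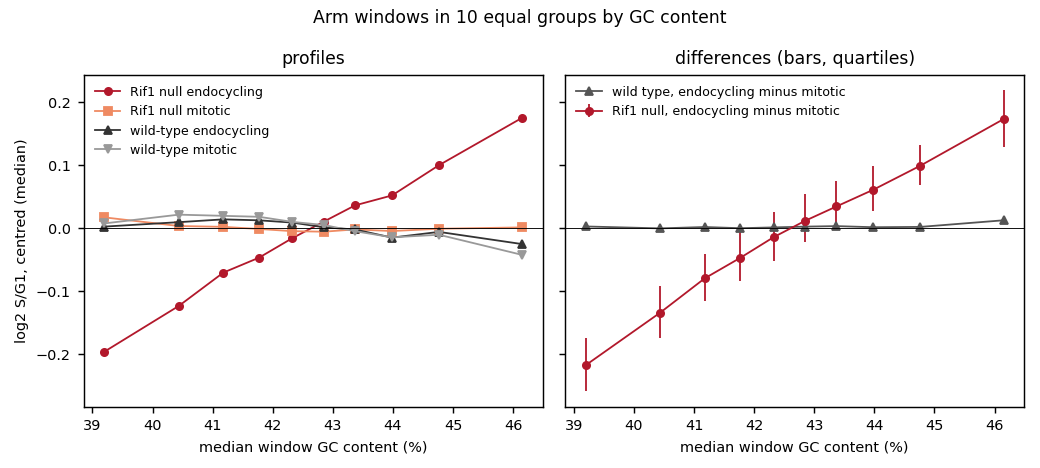
Median centred log2 S/G1 (left) and median endocycling minus mitotic difference with quartiles for the null pair (right) against GC content, in 10 equal groups of arm windows. The null endocycling line and the null difference climb from left to right, from −0.22 to 0.17 for the difference, while the medians of the other 3 profiles lie between −0.04 and 0.02.

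On the chromosome arms, 2157 windows (18.9%) were higher and 2519 (22.1%) lower in null endocycling cells, and the median difference was −0.00. The balance varied by arm. On 2L, 37.7% of windows were lower and 10.4% higher, with a median of −0.06, whereas on 3R 12.7% were lower and 21.81% higher, with a median of 0.02. On X both sides were filled, with 22.97% lower and 24.5% higher. With the GC trend removed, 4.85% of arm windows were past 0.1 on the higher and 2.72% on the lower side, not all of them windows that were past it before, and the SD of the difference over arm windows went from 0.128 to 0.062. By arm, the highest of these shares was that of 3L, with 8.50% higher. Over 1-Mb bins, 11 of 116 bins had a median above 0.1 and 17 one below −0.1, and 1 and 0 bins did so with the GC trend removed.

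Gene number followed the same gradient. Arm windows with 0 to 5 protein-coding genes had a median difference of −0.08, and those with 21 or more a median of 0.08, at median GC contents of 41.3% and 44.2%. With the GC trend removed these medians were −0.01 and 0.01. By its median, the null difference went with wild-type timing much less. When arm windows were split into 5 equal groups by the wild-type mitotic RT value, which comes from other S phase samples, the latest group had a median null difference of −0.01 and the earliest one of −0.03. The lower share was 28.1% in the latest and 30.2% in the earliest group, against 15.9% in the middle group.

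**Figure D2:**
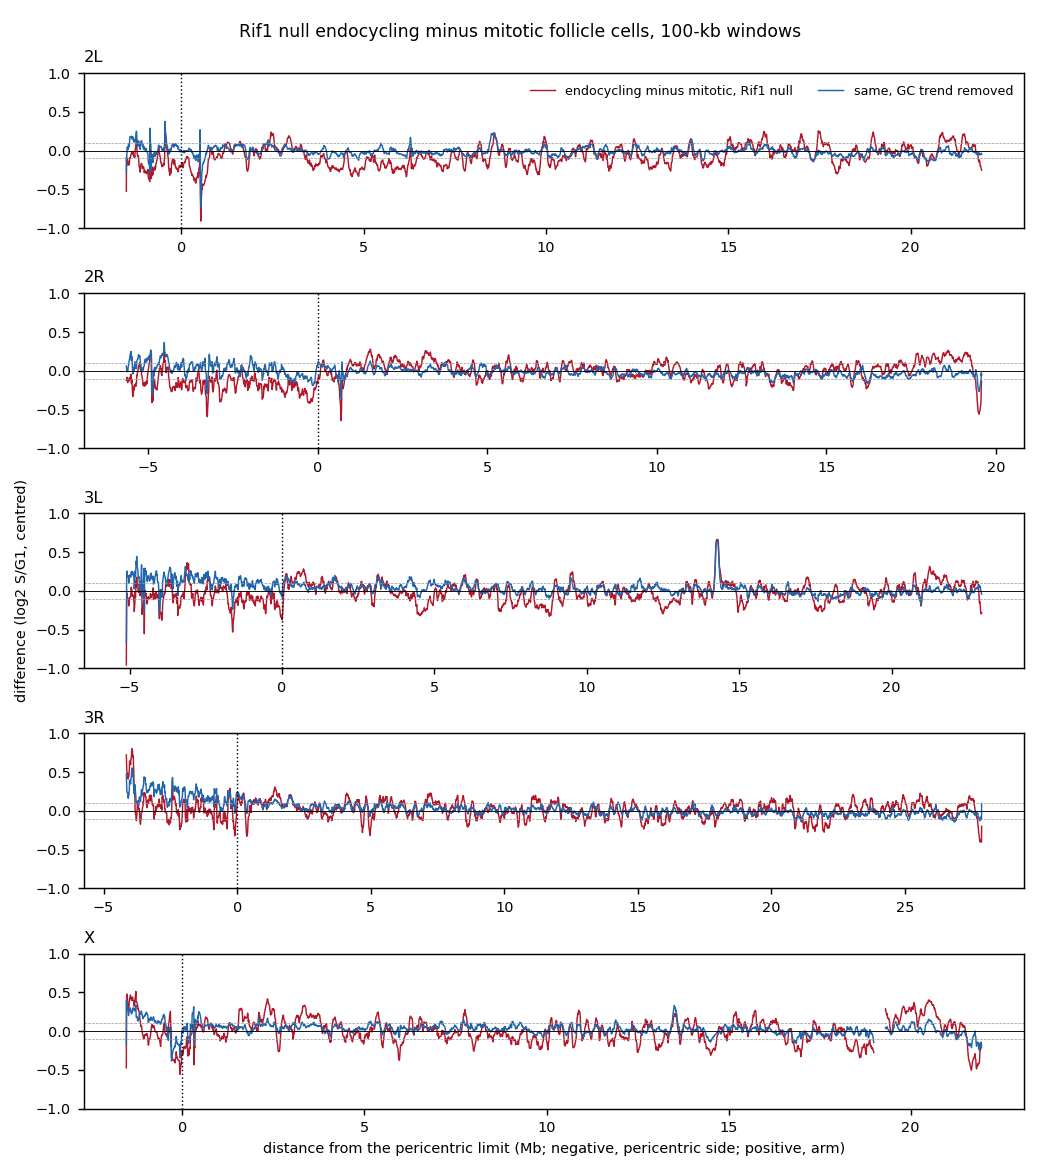
Endocycling minus mitotic difference of Rif1 null follicle cells in each 100-kb window (red) and the same with the GC trend removed (blue), against the distance of the window centre from the pericentric limit in Mb, 1 panel per arm, with dashed lines at ±0.1. The red line swings past both dashed lines along all arms, the blue line mostly stays between them, and both show the 3L chorion peak (0.67 in red), the low point at the histone cluster of 2L (−0.91 in red) and high values at the proximal end of 3R.

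Consecutive windows past 0.1 formed 132 higher and 129 lower runs of at least 5 windows on the arms, with median lengths of 195 and 210 kb. Of these, 18 higher and 11 lower runs kept a mean past 0.1 in the same direction after removal of the GC trend, and the mean of 23 and 34 changed sign. The longest run was a lower one on 2L from 15700001 to 16730000, 94 windows with a mean of −0.21, where null endocycling values averaged −0.11 and null mitotic values 0.09. It holds CycE, the cyclin that drives entry into S phase, and chif, whose product activates the Cdc7 kinase. With the GC trend removed its mean was −0.01, at a GC content of 39.4%. A lower run of 860 kb on X from 2960001 to 3820000, with a mean of −0.22 and −0.01 after removal, holds N, the Notch receptor that sets off the endocycle switch, and dnc, a cAMP phosphodiesterase. On 3L, a run from 14070001 to 14770000 with the Wnt receptor gene fz had a mean of −0.22. Another from 18120001 to 18670000, with the cell death gene hid and MYPT-75D, which encodes a PP1 regulatory subunit, had a mean of −0.24. These means were −0.02 and 0.00 with the trend removed.

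Longest among the higher runs was that of 2R from 24030001 to 25030000, 91 windows with 172 protein-coding genes, among them bs, the serum response factor, and its mean was 0.18. The mean without the GC trend was −0.01, at a GC content of 46.9%. On X, the run from 18150001 to 18950000 with Bx averaged 0.21, and the run from 19390001 to 19840000 with kek5 and zld, the pioneer factor Zelda, averaged 0.27. They were at 0.07 and 0.09 with the trend removed. The 2L run from 4390001 to 4610000, with dpy, a giant protein of the extracellular matrix, averaged 0.20 and −0.02 after removal. The 2L run from 720001 to 1260000, which holds S, had means of 0.16 and −0.00, and the 3L run from 1350001 to 1890000, with the phosphatase gene Ptp61F, had means of 0.20 and 0.02. On 2R, a run from 7070001 to 7370000 with the planar polarity gene pk and the neuronal receptor gene Dscam1 averaged 0.21, and 0.06 with the trend removed.

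Some other runs kept more of their size without the GC trend. On 3R from 5310001 to 5900000, with mtd and plx, the mean was 0.20 and it was 0.10 with the GC trend removed, with 29 of 50 windows still past 0.1. The null mitotic mean was −0.12 there and the null endocycling mean 0.08. On 2R from 19450001 to 19810000, with par-1, a polarity kinase, and sm, the mean was −0.18 and then −0.08. A run on 3R from 26060001 to 26460000 with dysf kept less, with means of −0.20 and −0.06.

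The chorion locus of 3L was the highest arm region. It holds Cp18, Cp15, Cp19 and Cp16, which encode eggshell proteins, and lies in a run from 8500001 to 8860000. In the window 8680001 to 8780000, the null endocycling value was 1.41 and the null mitotic value 0.76, a difference of 0.65, and it was 0.64 with the GC trend removed. Wild-type endocycling and mitotic values were 0.86 and 0.41, a difference of 0.45. The order from high to low was thus null endocycling, wild-type endocycling, null mitotic and wild-type mitotic. In the highest window, 8670001 to 8770000, the null difference of 0.67 corresponds to a ratio of 1.59. Away from this window the difference was 0.42 at 50 kb on the telomeric side and 0.59 at 50 kb on the centromeric side. At 100 kb it was 0.22 and 0.10, and at 200 kb 0.07 and −0.01. Because the null endocycling profile is wider, the size depended on scaling: with both null profiles brought to equal SD over the arms, the difference at the 4 genes was 0.04, and with quantile normalization 0.33. The equal-SD scaling used the SDs as measured, 0.151 and 0.084, which include the GC trend. With that trend removed from each profile they were 0.107 and 0.084, and scaling by these was not run.

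The X chorion locus, with Cp36, Cp38 and the genes Cp7Fa to Cp7Fc, gave the same order at a lower level. In the window of Cp36, null endocycling cells were at 0.58, null mitotic cells at 0.35, wild-type endocycling cells at 0.39 and wild-type mitotic cells at 0.15. The null difference was 0.22 and the GC-adjusted one 0.31, with a wild-type difference of 0.24. The 5 genes shared 2 largely overlapping windows, so they are not separate measurements. Both windows were above 0.1, where 18.0% of all windows were. The median of the genes went from 0.22 to −0.04 when the null profiles were brought to equal SD. A local peak at both chorion loci was thus present in the 2C to 4C as well as the 4C to 8C fraction of both genotypes. On X it was not the highest point nearby in wild type. At 150 kb on the telomeric side, wild-type endocycling and mitotic values were 0.47 and 0.41. Amplification is known from follicle cells at a stage after the endocycles, and how many such cells either fraction held was not tested. Among loci known as smaller follicle amplicons, Vm34Ca, a vitelline membrane gene on 2L, had a null difference of 0.23 (0.38 against 0.15) and 0.22 with the GC trend removed, where the wild-type difference was 0.11. The 3L pair yellow-g and yellow-g2, with roles in the eggshell, had 0.20 each, and 0.06 and 0.07 with the trend removed. CG13113 and CG13114 on 2L had 0.08 and 0.10. Further genes on the list, thw, Buffy, CG7296 and Cad74A, whose place in amplicons was not checked, ranged from −0.13 to 0.08.

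**Figure D3:**
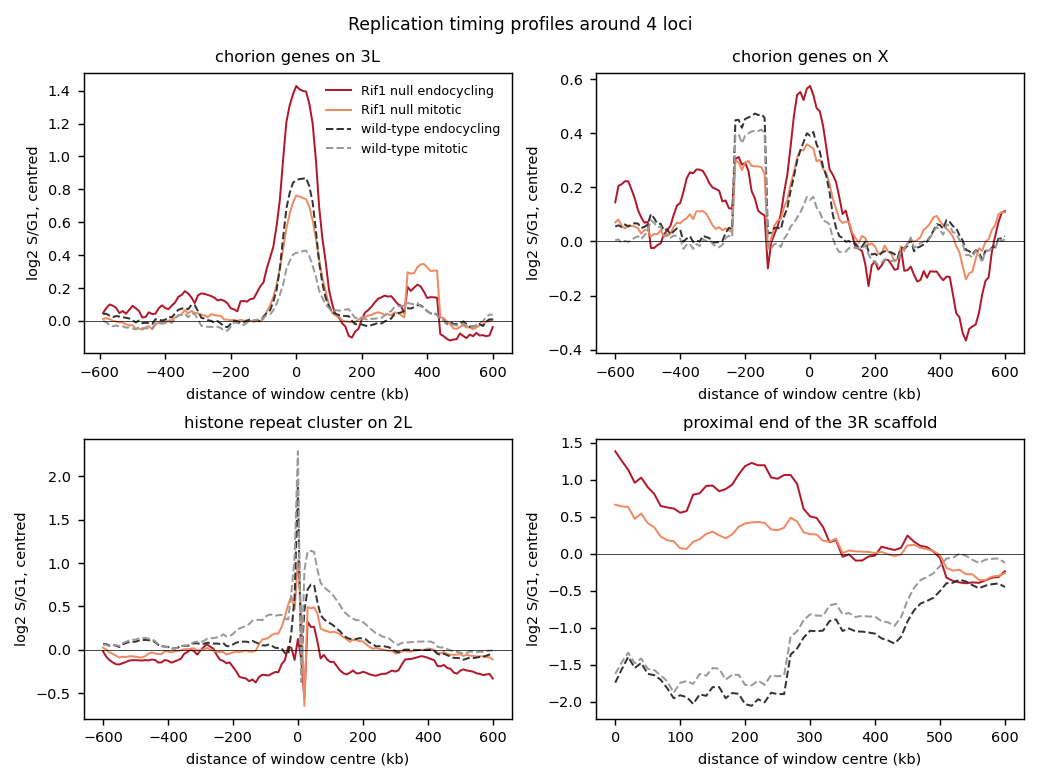
Centred log2 S/G1 of the 4 follicle cell profiles against the distance in kb of the window centre from the chorion genes of 3L and X, the histone repeat cluster of 2L and the first window of 3R. Null endocycling cells peak highest at both chorion loci (1.43 and 0.58), lie below null mitotic cells in nearly all windows around the histone cluster, and are the highest profile at the start of 3R, where both wild-type profiles lie below −1.

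The histone repeat cluster of 2L, 111 annotated genes for histones between 21416953 and 21541681, was the lowest arm region. In a run from 21190001 to 21530000, null endocycling values averaged −0.21 and null mitotic values 0.18, a difference of −0.39. With the GC trend removed it was −0.14, with 13 of 25 windows past 0.1. Wild-type endocycling cells were also below mitotic cells there, at 0.15 against 0.40. Of 23 windows that lay within 100 kb of the cluster, 22 were lower in null endocycling cells, and the median was −0.42. Single windows swung widely in all profiles. The window from 21420001 to 21520000 had the lowest difference of all arm windows, −0.91, with values of 0.13 and 1.03. The window 20 kb further on had values of −0.56 and −0.64, a difference of 0.09. A second narrow low point was on 2R at 6330001 to 6430000, where null endocycling cells were at 0.56 and null mitotic cells at 1.201. This difference of −0.64 was −0.35 with the GC trend removed, at a GC content of 35.9%, below the lowest bin, and the wild-type difference was −0.05.

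The telomeric ends of 3 arms were low in null endocycling cells. On X, the run from 1 to 500000 had a mean of −0.36, with values of −0.38 in endocycling and −0.02 in mitotic null cells, and 31 of its 41 windows stayed below −0.1 with the GC trend removed, at a mean of −0.15. The window from 150001 to 250000, with a GC content of 34.4%, held 215 copies of the 12-base word marked in the X tip repeat above, counted on both strands, and had a difference of −0.45. The word was present in 27.5% of all windows. From 1 to 2 Mb behind the tip of X, where GC content was 47.3%, the median difference was 0.22, the highest of all 1-Mb bins, and 0.02 with the trend removed. The window from 1380001 to 1480000, whose middle is printed above, had a GC content of 51.8%, a difference of 0.38 and a GC-adjusted difference of 0.13.

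The other low ends were those of 2R and 3R. On 2R, the run from 25040001 to the scaffold end at 25286936, with lov and gsb-n, a segmentation gene, averaged −0.36, and −0.13 with the trend removed. The 3R run from 31870001 to 32079331, with heph, an RNA-binding protein gene, averaged −0.32, and −0.08 with it removed. In contrast, the distal 250 kb of 2L and 3L had median differences of −0.08 and −0.01, and −0.04 and 0.04 with the trend removed. GC content differed too, with medians of 41.8% and 41.3% there. It was 38.2%, 38.5% and 39.1% in the distal 250 kb of X, 2R and 3R. Wild-type differences in the low end runs of X, 2R and 3R were −0.00 or 0.00.

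In pericentric windows, 873 of 1816 (48.1%) were lower and 245 (13.5%) higher in null endocycling cells, and the median difference was −0.09. Their median GC content was 39.4%, against 42.6% on the arms. Removal of the GC trend turned this balance, with 52.0% of pericentric windows higher, 5.95% lower and a median of 0.11. Of the 1816 windows, 272 had a GC content below the lowest bin and 30 one above the highest, where the trend was held flat. By arm, the medians were −0.17 on 2L, −0.17 on 2R, −0.08 on 3L, 0.025 on 3R and −0.02 on X. With the trend removed all 5 were above 0, at 0.04, 0.03, 0.13, 0.22 and 0.15. In both, the arms of chromosome 2 were below 3L and X, and 3R was highest. The null profiles themselves lay near the arm level, with pericentric medians of −0.06 in endocycling and 0.02 in mitotic cells, whereas wild-type medians were −0.28 and −0.27. The lowest difference of all windows, −0.96, was in the 3L heterochromatin, 5 to 6 Mb inside the limit.

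The most proximal windows of 3R, from 1 to 420000, were higher in null endocycling cells by a mean of 0.56, at 0.90 against 0.34. All 33 windows stayed above 0.1 with the binned GC trend removed, at a mean of 0.35, and the mean was 0.18 with a straight line removed. Of all 3R pericentric windows, 85.6% were above 0.1 with the binned trend removed, so this count does not set the stretch apart. The mean GC content of the stretch, 49.9%, lies above the highest bin at 47.9%. Wild-type cells were at −1.70 and −1.51 there, a difference of −0.19. This stretch holds 9810 of 10281 matches of AGTACGGGACC on either strand, the reverse being GGTCCCGTACT. All of its 33 windows had a match, against 196 of all windows (1.47%), and the first 100 kb held 3972. Within the 180 bases printed above, 16 copies follow each other at 11 bases 13 times and at 12 bases 2 times. No protein-coding gene is annotated there. At the other end of this heterochromatin, from 0 to 0.5 Mb inside the limit, the median was −0.04, and between 3 and 4 Mb inside it was 0.09.

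The proximal end of X gave a similar picture. From 23110001 to 23542271, 43 windows averaged 0.81 in null endocycling and 0.45 in null mitotic cells, a difference of 0.36. All 43 stayed above 0.1 with the GC trend removed, where 66.9% of all X pericentric windows were. Wild-type values in this run were −1.45 and −1.32. This run and that of 3R were chosen as windows all above 0.1 before removal. By contrast, X from 21950001 to 22350000 was lower, at −0.19 against 0.18, a difference of −0.37 and −0.19 with the trend removed. Then 27 of its 31 windows were below −0.1, where 19.4% of all X pericentric windows were. On 2R, 82 windows from 4840001 to 5750000, at the border to the arm, had a mean of −0.26 and −0.09 with the trend removed. They hold Nipped-A, a subunit of histone acetyltransferase complexes, and Ir41a, a receptor gene of the nervous system. A short 2R run from 680001 to 840000 averaged 0.17 and 0.21 with the trend removed, and a 3L run from 25990001 to 26230000 averaged 0.26 and 0.20. The longest lower runs of 2L, from 21950001 to 22410000 with Ir40a and Marf1, and of 3L, from 24420001 to 24830000 with the homeobox gene scro, had means of −0.20 and −0.25. These came to 0.04 and 0.01 with the trend removed, and the lower run of 3R from 1520001 to 1750000 went from −0.13 to 0.10. In 43 pericentric windows with 80% to 95% repeat-masked bases, the median difference was 0.49, against −0.09 in 1581 windows with up to 50%, −0.12 in 191 windows with 50% to 80% and −0.47 in the 1 window above 95%. GC content differed as well, at 49.4%, 39.5%, 38.4% and 33.6% in this order, and the differences with the trend removed were 0.24, 0.10, 0.11 and −0.18. The median of 0.49 is the value of a window in the 3R stretch from 1 to 420000, so this group of 43 overlaps that stretch and is not a separate result. Its GC content also lies above the highest bin at 47.9%, where the trend was held flat. Reads were kept only above a mapping quality limit, and how many remained in repeats is unknown.

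**Figure D4:**
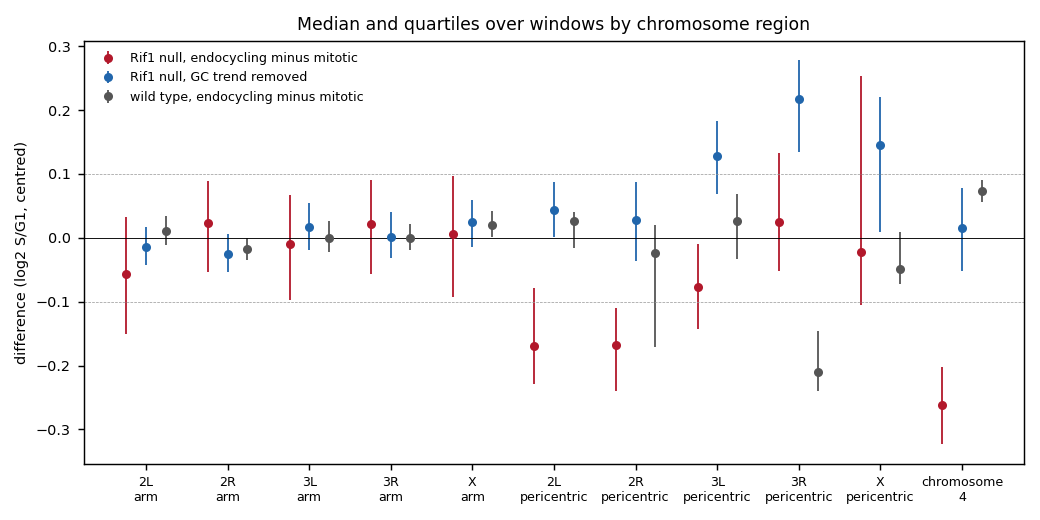
Median and quartiles over windows of the endocycling minus mitotic difference on each arm, in the pericentric windows of each arm and on chromosome 4, for the null pair as measured (red), the null pair with the GC trend removed (blue) and the wild-type pair (grey). Red medians lie between −0.26 on chromosome 4 and 0.025, and blue medians are above 0 in all pericentric groups, with 0.22 on 3R where the wild-type median is −0.21.

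Chromosome 4, small, rich in heterochromatin and nonetheless genic, was lower along its length. In null endocycling cells the median was −0.30 and in null mitotic cells −0.06, and 128 of 135 windows (94.8%) had a difference below −0.1, with a median of −0.26. These 128 windows formed a single run, in which the differences ranged from −0.45 to −0.11. Wild-type cells had a median difference of 0.07, with 14.1% of windows higher. The median was −0.31 both in the first 0.3 Mb and from 0.9 to 1.2 Mb, −0.21 between these stretches and −0.22 beyond them. With the GC trend removed the median of chromosome 4 was 0.015, with 14.8% of windows higher and 8.15% lower, and with a straight line it was 0.13. Of its windows, 124 had a GC content below that of the lowest bin, 37.9%, so neither value rests on arm windows of like composition. The listed genes ci, the transcription factor of Hedgehog signaling, pan, the TCF factor of Wnt signaling, zfh2, Sox102F and the eye genes ey and toy were at −0.28, −0.26, −0.21, −0.21, −0.21 and −0.22, all 6 below −0.1. Their median was 0.08 with the trend removed.

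Genes chosen for their roles were read in the window nearest to their middle. Of 12 genes of the endocycle switch, 3 were in windows above 0.1 and 3 in windows below −0.1, where 18.0% and 26.3% of all windows were. Their median was 0.01, close to that of all windows, −0.01, and neither count sets these genes apart. E2f1, the activator of S phase genes, was lowest at −0.17 (−0.12 against 0.05), followed by N at −0.16 and ct, a homeobox gene shut off at the switch, at −0.13. The highest were ttk, a repressor, at 0.14, fzr, which targets mitotic cyclins for degradation, at 0.13 and peb, the zinc finger factor Hindsight, at 0.11. The phosphatase gene stg, which drives mitosis, was at 0.08, and CycE was at −0.08 in a window that begins just before the low run. With the GC trend removed none of the 12 was past 0.1, and the range was −0.08 to 0.07.

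Among 17 replication and timing factors, 5 were in windows above 0.1 and 1 below −0.1, against 18.0% and 26.3% of all windows, and none with the GC trend removed. Mcm2, a helicase subunit, was at 0.21, Orc1, of the origin recognition complex, and Su(var)3-9, a histone methyltransferase of heterochromatin, were at 0.17, and geminin, the licensing inhibitor, was at 0.15. The window of chif was at −0.18. Rif1 itself was at 0.07 (0.03 against −0.04), SuUR at −0.01 and dup, which loads the helicase, at 0.00. Homeotic complexes were near the median: the 3 bithorax genes Ubx, abd-A and Abd-B ranged from −0.09 to −0.00, and the 6 Antennapedia complex genes from −0.09 to 0.06. In both null profiles Scr was low, at −0.30 in endocycling and −0.21 in mitotic cells. Of the 6 yolk and vitelline membrane genes, Vm26Aa and Vm26Ab shared a window at 0.21 and the others ranged from −0.02 to 0.09. With the trend removed only Yp1 and Yp2 of these 6 were above 0.1, both at 0.11. The piRNA cluster flam was high in both null groups, at 0.71 and 0.64, and its difference was 0.08, or 0.23 with the trend removed, −0.21 with quantile normalization and −0.33 with profiles of equal SD. In wild type flam was at 1.14 and 1.03.

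**Figure D5:**
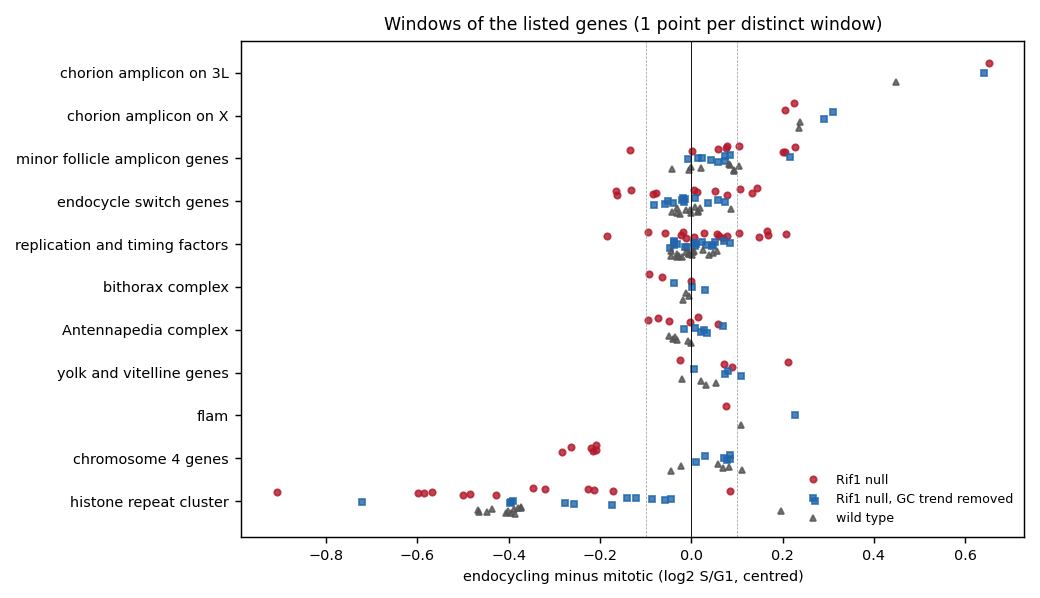
Endocycling minus mitotic difference in the windows of the listed genes, 1 point per distinct window, for the null pair (red circles), the null pair with the GC trend removed (blue squares) and wild type (grey triangles), with dashed lines at ±0.1. Chorion windows lie right of 0.1 and most histone windows left of −0.1 in all 3, while chromosome 4 genes lie left of −0.1 in the null pair as measured.

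Beside wild type, the null difference was larger in size. The median size over all windows was 0.089 in null and 0.026 in wild-type cells, and 0.041 in null cells with the GC trend removed. They share no S phase sample. On the arms 222 windows were past 0.1 in both, and 86 of these had the same direction. The other 136 were lower in null and higher in wild type. Of all arm windows, 18.9% were higher and 22.1% lower in null, and 2.36% and 0.552% in wild type. In pericentric windows 403 were past 0.1 in both and 207 agreed in direction. There 13.5% were higher and 48.1% lower in null, and 4.19% and 34.2% in wild type. Overlap is common at such pericentric shares, and the counts were not tested against it. In the 3R heterochromatin, 107 windows were higher in null and lower in wild-type endocycling cells, and none the other way. Of all its windows, 32.0% were higher in null and 76.7% lower in wild type, where only 1 window was higher. Such shares alone make this overlap common. The null minus the wild-type difference had a median of 0.22 there, and 77.2% of its 416 windows were above 0.1. The null profiles lay above the wild-type ones in both cell cycles on 3R, by a median of 0.86 in mitotic and 1.07 in endocycling cells. On chromosome 4 the median null minus wild-type difference was −0.32, with null mitotic cells at the wild-type level (0.00) and null endocycling cells at −0.35 relative to it. On 2L, 2R and 3L pericentric windows, this median was −0.16, −0.12 and −0.10. The order of the genotypes in these 3 turned with the GC trend removed. With it removed from both pairs, the null medians were 0.044, 0.027 and 0.128 on 2L, 2R and 3L, against 0.022, −0.030 and 0.021 in wild type. On chromosome 4 the binned medians were 0.015 and 0.068, a much smaller gap of the same direction. This direction is not settled, since 124 of its windows had a GC content below the lowest bin. With a straight line the null median was 0.13, above the wild-type median of 0.07 as measured. On 3R the binned medians were 0.218 and −0.212. Without replicate values, none of these differences between genotypes was tested.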

How the data were processed

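RT was measured by sequencing DNA of sorted S phase and G1 nuclei. The authors aligned reads to release 6 of the genome with Bowtie2 2.3.2, kept those above a mapping quality limit with SAMtools 1.9, counted them in windows, normalized to read depth and averaged S/G1 ratios over replicates. What the authors deposited is log2 S/G1, a single mean for each condition, not quantile normalized. All 9 value columns matched a group, and 0 were left unmapped. Python 3.11.15 with numpy 2.4.6, pandas 2.3.3 and matplotlib 3.10.9 was used. Each profile was centred on its median over arm windows, and the null mitotic profile was subtracted from the null endocycling one. Windows were pericentric by midpoint: 2L from 22 Mb, 2R up to 5.7 Mb, 3L from 23 Mb, 3R up to 4.2 Mb and X from 22 Mb. Windows at scaffold ends are shorter. The limma test of the study needs replicate values and was not run. GC content, gene positions and sequences came from RefSeq Release 6, and start sites from Ensembl. All 180 listed genes were matched. The GC trend was taken in 50 bins, held flat beyond the outer bins. Regions named were, per arm and direction, the run of at least 5 windows with the largest mean and the longest run, and the longest in heterochromatin, with genes of the lists and up to 3 of the longest genes. The 2R low point at 6330001 was named after its value was seen. Members and gene lists were chosen with earlier results of these data known. Functions were tested on simulated data.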

Additional observations from a re-analysis of the deposited data

How the results depend on the processing

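No paired analysis was possible because 1 mean per condition was deposited, and for the same reason no replicate could be left out. A share, count, ratio or correlation is taken as moved beyond 1.5 times and a log2 value beyond 0.05. A change of sign is counted as reversed only where the main value was past 0.1 in size, and otherwise as moved or unmoved by these limits. Of 196 comparison values under alternatives, 150 stayed within these limits, 44 moved and 2 reversed. The pericentric median changed sign, from −0.09 to 0.11 in bins and 0.10 with a straight line, but counts as moved. So do the changes of sign of flam. Of 87 means of named runs 35 moved and 9 reversed, and of 110 list medians 26 and 3. Centring each arm by itself (chromosome 4 kept the median of all arms), values as deposited, pericentric limits moved by 0.5 Mb and the X block kept in moved no comparison value, though with the X block the null correlation was 0.747 and the SD ratio 1.29. Centring by arm moved 2 list medians, those of the minor amplicon genes (0.134) and the histone genes (−0.373). With the threshold at 0.2, higher and lower shares were 4.26% and 7.49% on arms, 6.06% and 21.81% in pericentric windows, 0.0% higher on chromosome 4, and 0.22% and 3.25% in wild type. Every 10th window gave 0.0% higher on chromosome 4. Quantile normalization gave 2.22% higher and a median of −0.14 on chromosome 4, an SD ratio of 1.02, wild-type shares of 1.53% and 1.80%, a 3R null minus wild-type median of 0.11 and 17 higher 1-Mb bins. Equal SD gave a chromosome 4 median of −0.17, a 3R median of 0.38, 1.27% higher in wild type and 8 listed genes higher outside the histone cluster, in place of 23. Binned GC removal gave 4.85% and 2.72% on arms, 52.0% and 5.95% with a median of 0.11 in pericentric windows, 14.8% and 8.15% with a median of 0.015 on chromosome 4, a null correlation of 0.815, a 3R median of 0.41, 1 higher and 0 lower 1-Mb bins and 13 higher and 0 lower listed genes. A straight line, chosen after seeing the data, gave 4.30% and 3.25%, 48.7% and 6.50% with a median of 0.10, 75.6% and 1.48% with a median of 0.13, a correlation of 0.813, a 3R median of 0.39, 1 and 0 bins and 0 lower listed genes. It reversed the 2L runs from 720001 and 4390001 (−0.019 and −0.075), the 2R run from 24030001 (−0.040), the 3L run from 1350001 (−0.014), the pericentric lower runs of 2L (0.014), 3L (0.029) and 3R (0.073, and 0.010 with quantile normalization) and that of chromosome 4 (0.13). The median of the listed chromosome 4 genes reversed to 0.075 in bins and 0.18 with the line, and that of the X chorion genes to −0.044 with equal SD. The cause of these changes was not tested.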

Other observations

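The 31 windows left out on X, with midpoints between 2.7 and 3.0 Mb, had centred values of up to 6.47 and 6.601 in the endocycling and mitotic null profiles. The maxima of the Oregon-R profiles were 6.65 and 6.68. The null difference there had a median of −0.09 and ranged from −0.24 to 0.25.

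Runs of the GC-adjusted difference, taken the same way, numbered 36 higher and 21 lower on the arms, and 42 higher and 8 lower in pericentric windows. Among the highest outside the chorion loci was X from 21640001 to 21790000, over flam, with a mean of 0.23, and 2L from 13300001 to 13590000, around Vm34Ca, with 0.18. A stretch of 3R from 4160001 to 4540000, with cpx, which encodes the synaptic protein complexin, had 0.19. In 3R heterochromatin, 105 windows from 470001 to 1610000, with Myo81F, averaged 0.28, where the difference as measured was 0.07 and the wild-type one −0.25.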
